A study of Homo sapiens with 9 samples.

Results

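The 10 genes described here make, break down and control the polyamines putrescine, spermidine and spermine. They were listed by name from the known pathway, with earlier results of these data known, and they are 10 of the 58347 gene IDs in the deposited table: ODC1, AMD1, SRM, SMS, OAZ1, OAZ2, AZIN1, SAT1, SMOX and PAOX. All 10 passed the filter on low counts and were tested.

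RNA was sequenced from 9 libraries of K562, a human erythroleukaemia line. All 9 carried the same 3 transgenes, each driven by the EF1a promoter: dCas9, a Cas9 that finds its site but cannot cut, MS2-Fkbp, and SS18-Frb, which carries SS18 of the BAF chromatin remodelling complex. Rapamycin bridges Fkbp and Frb, so that SS18 is drawn to the site of the guide RNA. It also inhibits the growth kinase complex mTORC1 in cells with any guide. The stated question of the study was whether this recruitment activates HBG1. Cells with an HBG1 promoter sgRNA received DMSO (n = 3) or 10 nM rapamycin (n = 3), and cells with a non-targeting sgRNA received DMSO (n = 1, replicate 2) or 10 nM rapamycin (n = 2, replicates 1 and 2), all for 24 h. The labels do not say whether replicates were separate cultures, so p-values measure only the spread between these libraries, and they do not say whether the line was 1 clone.

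The libraries held 19797409 to 31619671 counts. Levels are in CPM, read counts scaled to a common library size with TMM factors, and tests are from 1 edgeR quasi-likelihood fit of all 9 libraries. The threshold for a call was 0.05 after Benjamini-Hochberg adjustment over 23675 genes. HBG1, the targeted gene, was called higher under rapamycin with its guide (log2 fold change 2.71). The 5 K562 markers read here were present in every library, from TAL1 at 124 to 162 CPM to HBZ at 1790 to 3560 CPM. CD3E and ALB, which mark T cells and hepatocytes, stood at no more than 0.361 and 0.19 CPM, while EPCAM, an epithelial marker, stood at 36.9 to 50.01 CPM.

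Polyamines are small positively charged molecules that bind nucleic acids and are needed for growth. Ornithine decarboxylase (ODC1) makes putrescine from ornithine, AMD1 decarboxylates S-adenosylmethionine, and SRM and SMS use that product to build spermidine and spermine. Control is by feedback: polyamines promote a reading-frame shift in antizyme mRNA, antizyme (OAZ1, OAZ2) sends ODC1 protein to the proteasome, and AZIN1, an inactive relative of ODC1, binds antizyme and frees the enzyme. SAT1 acetylates spermidine and spermine for export or oxidation by PAOX, and SMOX oxidises spermine directly. Much of this control acts on translation or protein stability, which read counts of poly(A) RNA do not measure.

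Some of these control elements can be seen in the sequences. The palindrome CACGTG, the E-box, is bound by the proteins MYC and MAX as a pair, and the ODC1 gene is their textbook target. The windows shown, of ODC1 and SRM, are those that held CACGTG among the genes with a promoter entry. Each window runs from 250 bases before to 50 bases after a start in RefSeq, on GRCh38.p14, in transcript direction, with every CACGTG in capitals. The ODC1 start is the further downstream of its 2 entries.
ODC1, chr2:10447963-10448262, minus strand: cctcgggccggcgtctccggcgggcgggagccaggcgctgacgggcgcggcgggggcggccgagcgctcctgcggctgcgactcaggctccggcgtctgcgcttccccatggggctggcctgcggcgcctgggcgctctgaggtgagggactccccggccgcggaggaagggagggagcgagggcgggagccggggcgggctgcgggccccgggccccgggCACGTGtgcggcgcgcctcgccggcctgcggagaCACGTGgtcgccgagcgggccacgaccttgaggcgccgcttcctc
SRM, chr1:11059969-11060268, minus strand: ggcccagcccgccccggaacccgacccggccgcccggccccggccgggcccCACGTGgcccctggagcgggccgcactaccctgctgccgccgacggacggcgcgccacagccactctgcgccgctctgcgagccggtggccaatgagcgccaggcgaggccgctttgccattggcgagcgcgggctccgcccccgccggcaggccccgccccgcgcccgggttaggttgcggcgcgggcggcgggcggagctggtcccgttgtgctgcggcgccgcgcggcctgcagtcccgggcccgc
The ODC1 window holds 2 matches, the first bases of which lie 29 bases before and at base 6 after the start, counting the start as base 1. The SRM window holds 1, whose first base is at -199. Promoter entries were matched for 7 of the 10 genes, and AZIN1, SMOX and PAOX had none. Of the other genes called lower with the HBG1 sgRNA, AMD1 had windows without CACGTG and AZIN1 had no entry. CACGTG was in no window of AMD1, SMS, OAZ1, OAZ2 or SAT1 and not in the upstream ODC1 entry (chr2:10448278-10448577), and 2548 of all 35116 promoter entries (7.26%) held it. The core of the amino acid response element, TGATGNAA on either strand, was in none of the matched windows and in 3.62% of all entries. The 10 windows of the 7 genes were GC-rich, at 65.3% to 82% GC against a median of 58.7% (quartiles 47% and 68%) over all entries.

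The AMD1 mRNA opens with a very short reading frame before its coding sequence, a known site of polyamine control of translation. In the AMD1 entry at chr6:110874535-110874834 (plus strand) it begins at base 12 of the transcript, at chr6:110874796-110874816, and spans 6 codons and a stop. Its start and stop codons are in capitals.
AMD1, short frame: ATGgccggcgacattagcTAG

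The antizyme genes are shown at the point where the ribosome must skip 1 base to read the whole protein. The windows take 30 bases on each side of the last codon before the shift and the in-frame stop, TCCTGA, in capitals, from the GENCODE 29 transcripts.
OAZ1, chr19:2271410-2271475, plus strand: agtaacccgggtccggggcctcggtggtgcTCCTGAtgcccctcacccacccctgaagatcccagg
OAZ2, chr15:64691483-64691548, minus strand: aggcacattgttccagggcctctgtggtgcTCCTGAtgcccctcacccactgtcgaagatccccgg
The reading frame before the stop is 68 codons long in OAZ1 and 32 in OAZ2. The 66-base windows match at 53 positions (80.3%), and the shift hexamer is the same in both. Counts per gene do not show how often the shift occurs.

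Per length of mRNA, the 10 genes covered a wide range of levels. Mean levels over the 9 libraries, in CPM per kb of the longest principal transcript, were 559 for OAZ1 (460 to 626 over libraries), 216 for ODC1 (187 to 253), 150 for SRM (123 to 184) and 72.7 for SMS (62.8 to 82.3). AMD1 followed at 38.0 (33.2 to 45.2). SAT1 at 23.5 (20.6 to 26.5), AZIN1 at 20.5 (17.6 to 23.6) and OAZ2 at 19.8 (18.2 to 20.6) overlapped one another. SMOX, at 4.17 (2.74 to 5.27), and PAOX, at 3.34 (2.24 to 4.40), were lowest and also overlapped. The synthesis enzymes and OAZ1 thus had the highest levels and the oxidases the lowest. The order depends on the length used: over the union of all annotated exons, ODC1 (mean 193) stood above OAZ1 (187), and AZIN1 (15.03) above SAT1 (10.01).

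**Figure D1:**
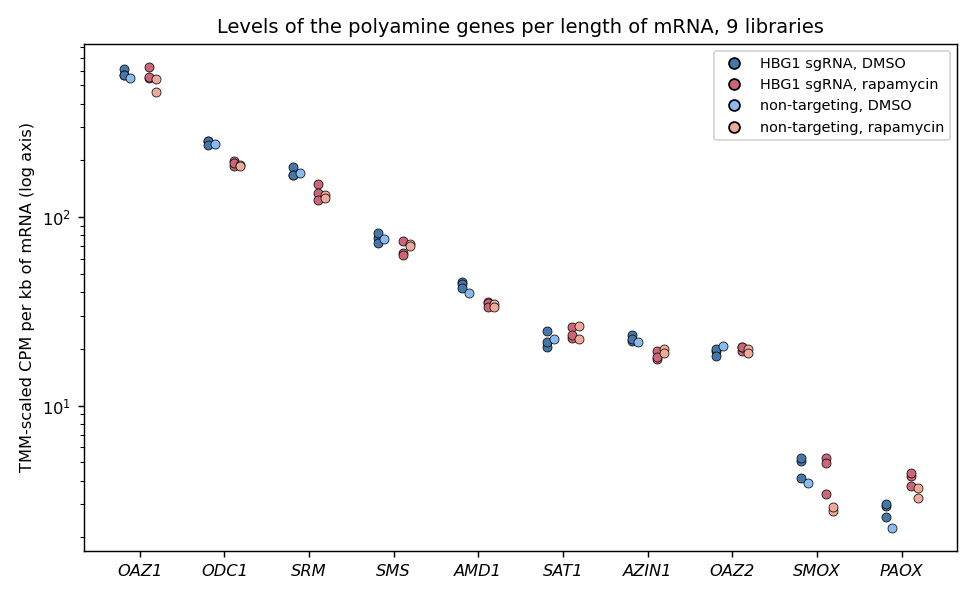
TMM-scaled CPM per kb of mRNA (log axis) of the 10 genes, 1 point per library, coloured by guide and treatment and ordered by mean. OAZ1 and ODC1 lead at means of 559 and 216, and SMOX and PAOX are lowest at 4.17 and 3.34.

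With the HBG1 sgRNA, rapamycin lowered ODC1, AMD1, SRM and AZIN1, by 1.24-fold to 1.29-fold. That is 4 of the 10 genes called, all lower, where 6.80% of all tested genes were called (2.75% higher and 4.05% lower). OAZ1, OAZ2, SAT1, SMOX, SMS and PAOX were not called. The median log2 fold change was -0.15 over the 10 genes and 0.02 over all tested genes, and the median size of change was 0.26 against 0.23. In bulk RNA, less RNA per cell and fewer cells of a kind cannot be told apart. Beside these results, 2 of the 5 K562 markers were called with the same guide, GATA1 higher (log2 fold change 0.31, adjusted p = 0.0326) and TFRC lower (-0.28, adjusted p = 0.0183). HBZ was called higher with the replicate block (0.27, adjusted p = 0.00294) and was higher in 3 of 3 pairs. The summed K562 markers ran from 3070 to 4140 CPM under DMSO and from 3240 to 4850 CPM under rapamycin. The summed markers of other cell types ran from 48.2 to 53.7 CPM under DMSO and from 44 to 57.1 CPM under rapamycin, and the part of either in the results was not tested.

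**Figure D2:**
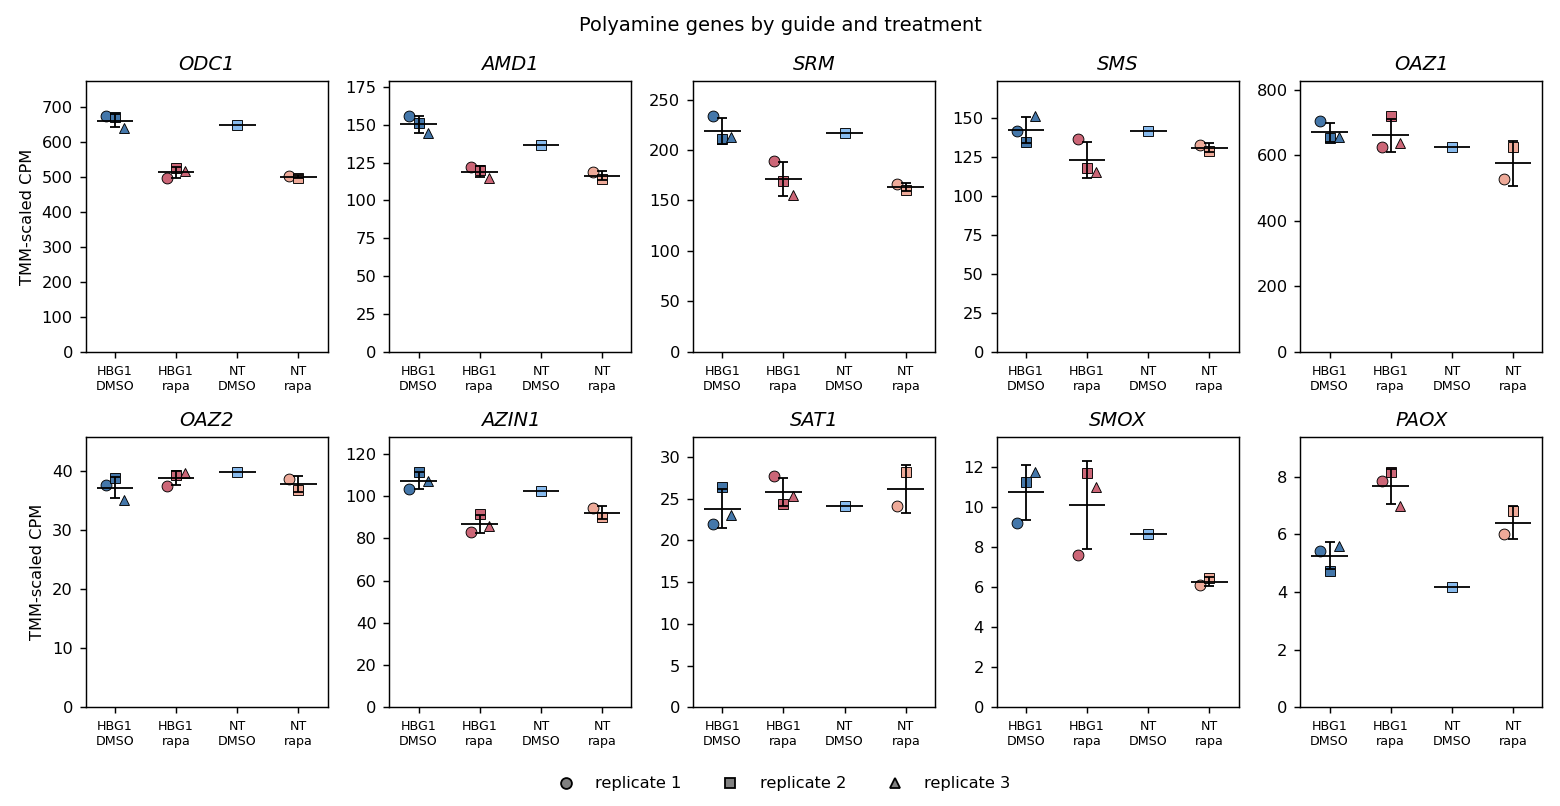
TMM-scaled CPM (y axes from 0) of the 10 genes in each library by guide and treatment, with the mean (line) and SD (bars) of each group and replicate number as the symbol. ODC1, AMD1, SRM and AZIN1 are lower and PAOX is higher in all 5 rapamycin libraries than in all 4 DMSO libraries.

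ODC1 (ENSG00000115758, chr2:10439968-10448504, GRCh38, minus strand), which commits ornithine to the pathway, had the clearest fall. It stood at 672, 670 and 638 CPM in DMSO replicates 1, 2 and 3 and at 495, 526 and 517 CPM under rapamycin with the HBG1 sgRNA. The non-targeting libraries had 647 CPM under DMSO and 502 and 497 CPM under rapamycin. Every rapamycin library lay below every DMSO library with either guide. With the HBG1 sgRNA the mean went from 660 ± 19.1 to 513 ± 15.8 CPM (SD, n = 3 each). The log2 fold change was -0.36 (SE 0.0642, adjusted p = 0.00314, edgeR). It was lower in 3 of 3 replicate pairs, by log2 differences of -0.44, -0.35 and -0.30, and called under all 16 alternatives tried.

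AMD1 (ENSG00000123505, chr6:110874770-110895713, plus strand) supplies the aminopropyl groups for both later steps. It stood at 156, 151 and 144 CPM under DMSO and 122, 120 and 115 CPM under rapamycin with the HBG1 sgRNA, and at 136 CPM under DMSO and 119 and 114 CPM under rapamycin with the non-targeting sgRNA. Here too the treatments did not overlap with either guide. The means with the HBG1 sgRNA were 150 ± 5.68 and 119 ± 3.61 CPM (SD, n = 3 each), and the fit gave -0.34 on the log2 scale (SE 0.07, adjusted p = 0.00859, edgeR). The 3 pairs were close to one another, at -0.35, -0.34 and -0.33.

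SRM (ENSG00000116649, chr1:11054584-11060024, minus strand), spermidine synthase, stood at 233, 211 and 213 CPM under DMSO and 189, 170 and 155 CPM under rapamycin with the HBG1 sgRNA. The non-targeting libraries had 217 CPM under DMSO and 166 and 160 CPM under rapamycin. Treatments did not overlap with either guide. Means with the HBG1 sgRNA were 219 ± 12.5 and 171 ± 16.8 CPM (SD, n = 3 each), and the log2 fold change was -0.36 (SE 0.0802, adjusted p = 0.0143, edgeR).

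SMS (ENSG00000102172, chrX:21940573-21994835, plus strand), which turns spermidine into spermine, had a smaller estimate than the other 3 enzymes of synthesis. It stood at 142, 135 and 151 CPM under DMSO and 137, 118 and 115 CPM under rapamycin with the HBG1 sgRNA, and at 142 CPM under DMSO and 133 and 129 CPM under rapamycin with the non-targeting sgRNA. The HBG1 sgRNA groups overlapped, because rapamycin replicate 1 lay above DMSO replicate 2. The log2 fold change was -0.21 (SE 0.0807, adjusted p = 0.14, edgeR), with pairs at -0.05, -0.19 and -0.39. SMS was called lower with the replicate block (-0.20, adjusted p = 0.0392), which called 6 of the 10 genes, 5 lower and 1 higher, and 17.1% of tested genes (7.43% higher and 9.62% lower), and without rapamycin replicate 1 (-0.29, adjusted p = 0.0292).

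AZIN1 (ENSG00000155096, chr8:102826357-102893864, minus strand), the antizyme inhibitor, fell as ODC1, AMD1 and SRM did. Its levels were 104, 112 and 107 CPM under DMSO and 83.0, 91.5 and 85.8 CPM under rapamycin with the HBG1 sgRNA. With the non-targeting sgRNA they were 103 CPM under DMSO and 94.4 and 90.0 CPM under rapamycin. The treatments did not overlap. Means with the HBG1 sgRNA were 107 ± 3.95 and 86.8 ± 4.36 CPM (SD, n = 3 each), and the estimate was -0.31 on the log2 scale (SE 0.0738, adjusted p = 0.0196, edgeR).

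With the HBG1 sgRNA alone, the 3 rapamycin libraries lay wholly below the 3 DMSO libraries for ODC1, AMD1, SRM and AZIN1 and wholly above them for PAOX, 5 of the 10 genes, as for 25.3% of tested genes (12.2% higher and 13.1% lower). The calls of AMD1, SRM and AZIN1 were lost in some fits that left out a library. Without HBG1 sgRNA rapamycin replicate 3, AMD1 (adjusted p = 0.0545), SRM (0.0880) and AZIN1 (0.0816) missed the threshold in the edgeR fit, leaving ODC1 as the 1 gene of the 10 called. AZIN1 also missed it without DMSO replicate 2 (0.104) or DMSO replicate 3 (0.0706). Calls over all genes also fell in these fits, from 1609 to 693, 664 and 749 in that order. With any 1 library left out, estimates ran from -0.37 to -0.31 for AMD1 and from -0.43 to -0.29 for SRM. For AZIN1 they ran from -0.35 to -0.28.

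The antizymes differed from these genes in that neither was called. OAZ1 (ENSG00000104904, chr19:2269509-2273490, plus strand), the main antizyme, stood at 705, 653 and 655 CPM under DMSO and 626, 719 and 638 CPM under rapamycin with the HBG1 sgRNA. The non-targeting libraries had 625 CPM under DMSO and 528 and 625 CPM under rapamycin. The groups overlapped, and the log2 fold change with the HBG1 sgRNA was -0.02 (95% interval -0.19 to 0.15, adjusted p = 0.917, edgeR). OAZ2 (ENSG00000180304, chr15:64687573-64703281, minus strand), a second antizyme, ranged over only 35.2 to 39.9 CPM in the 9 libraries, with a log2 fold change of 0.06 (95% interval -0.12 to 0.24, adjusted p = 0.757). The intervals include falls smaller than those of ODC1 and do not reach its estimate of -0.36.

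The OAZ1 gene overlaps others. JSRP1 (195 to 291 CPM) and the readthrough gene AC005258.1 (224 to 318 CPM) share exonic bases with OAZ1. AC005258.1 has 0 exonic bases of its own in GENCODE 29 yet 4894 to 9185 counts. Reads in shared exons may thus have been counted for more than 1 gene, and OAZ1 may include reads of both. The annotation release behind the counts is not given, so this could not be checked. Their log2 fold changes with the HBG1 sgRNA were 0.03 for JSRP1 and 0.05 for AC005258.1, neither called (adjusted p = 0.900 and 0.837, edgeR). JSRP1 shares 12.1% and AC005258.1 17.4% of its exonic bases with OAZ1. Both counts may thus hold OAZ1 reads, and their changes cannot be taken as independent of that of OAZ1.

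Among the catabolic enzymes, PAOX had the largest estimate of the 10 genes. PAOX (ENSG00000148832, chr10:133379234-133391694, plus strand), the oxidase of acetylated polyamines, stood at 5.44, 4.75 and 5.61 CPM under DMSO and 7.85, 8.17 and 6.98 CPM under rapamycin with the HBG1 sgRNA. With the non-targeting sgRNA it stood at 4.17 CPM under DMSO and 6.00 and 6.82 CPM under rapamycin. All 5 rapamycin libraries lay above all 4 DMSO libraries. Over both guides 5 of the 10 genes separated in this way, 4 lower (ODC1, AMD1, SRM, AZIN1) and 1 higher (PAOX), as did 14.7% of tested genes (6.38% higher and 8.29% lower). The means with the HBG1 sgRNA were 5.27 ± 0.457 and 7.67 ± 0.613 CPM (SD, n = 3 each), and the log2 fold change was 0.54 (SE 0.171, 1.45-fold).

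This estimate did not pass over all genes (adjusted p = 0.0713, unadjusted p = 0.00613, edgeR). It passed with the replicate block (0.55, adjusted p = 0.037) and in the additive model of guide and treatment (0.56, adjusted p = 0.0116), and ran from 0.47 to 0.61 over the fits that left out a library. PAOX rests on 97 to 215 counts per library. Its last exons overlap AL360181.3, a readthrough gene at 13.5 to 21.6 CPM, and reads there may count for both. The log2 fold change of AL360181.3 was 0.30 (adjusted p = 0.221, edgeR). Of its exonic bases 76.2% are shared with MTG1 and 9.84% with PAOX, so its level may largely hold reads of MTG1. MTG1 stood at 14.3 to 21.3 CPM and shares 0% of its exonic bases with PAOX.

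SAT1 and SMOX gave no call. SAT1 (ENSG00000130066, chrX:23783173-23786226, plus strand), the acetyltransferase that polyamines normally induce, ranged from 21.9 to 26.4 CPM under DMSO and from 24.2 to 28.2 CPM under rapamycin over both guides. Its log2 fold change with the HBG1 sgRNA was 0.11 (95% interval -0.12 to 0.35, adjusted p = 0.613, edgeR). SMOX (ENSG00000088826, chr20:4120980-4187747, plus strand), spermine oxidase, stood at 9.20, 11.3 and 11.8 CPM under DMSO and 7.59, 11.7 and 11.01 CPM under rapamycin with the HBG1 sgRNA. Replicate 1 was the lowest of each group, and the log2 fold change was -0.08 (95% interval -0.45 to 0.28, adjusted p = 0.84).

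**Figure D3:**
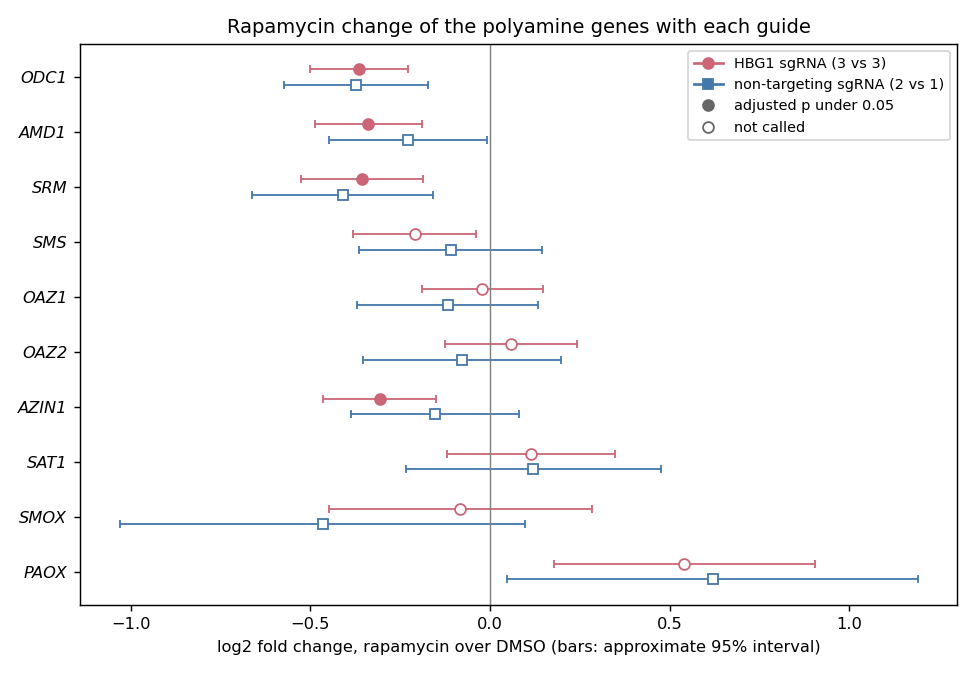
Log2 fold change of rapamycin over DMSO for the 10 genes with the HBG1 sgRNA (circles, 3 against 3 libraries) and the non-targeting sgRNA (squares, 2 against 1), with approximate 95% intervals and filled symbols for called genes. ODC1 lies at -0.36 and -0.37 with the 2 guides, and the 4 filled symbols all belong to the HBG1 sgRNA.

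Summed by role, the 4 synthesis enzymes held 1142 to 1203 CPM in the DMSO libraries and 901 to 943 CPM in the rapamycin libraries, with no overlap. The 3 catabolic enzymes held 36.5 to 42.4 CPM and 36.3 to 44.2 CPM, and the antizymes 665 to 742 CPM and 567 to 759 CPM, both overlapping. The largest part of the 3 sums was ODC1, SAT1 and OAZ1 in turn. The sums thus mostly repeat the results of those genes, and PAOX weighs little in the catabolic sum. Per length, the ratio of ODC1 to OAZ1 was 0.413 to 0.448 under DMSO (median 0.433) and 0.317 to 0.412 under rapamycin (median 0.344), so the treatments only just separated. The rapamycin value nearest to DMSO came from non-targeting replicate 1, where OAZ1 was lowest. ODC1 to AMD1 overlapped, at 5.60 to 6.15 and 5.26 to 5.83, as did ODC1 to AZIN1, at 10.6 to 11.6 and 9.47 to 10.7. PAOX to SMOX was 0.506 to 0.711 under DMSO and 0.762 to 1.27 under rapamycin, without overlap. These ratios are given as descriptions, without a test.

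With the non-targeting sgRNA, none of the 10 genes was called between rapamycin and DMSO (0 of 10), where 0.891% of all genes were. At an unadjusted p under 0.05 stood 4 of the 10, against 3349 of all 23675. DESeq2 called 2 of the 10, ODC1 (adjusted p = 0.00453) and SRM (0.0297). Over all genes DESeq2 called 720, where edgeR called 211. The edgeR estimates were -0.37 for ODC1 (SE 0.0949, adjusted p = 0.0776), -0.41 for SRM (SE 0.119, adjusted p = 0.121) and -0.23 for AMD1 (SE 0.104, adjusted p = 0.335). PAOX was at 0.62 (SE 0.269, adjusted p = 0.307), AZIN1 at -0.15 (0.584), SMS at -0.11 (0.753), OAZ1 at -0.12 (0.727), OAZ2 at -0.08 (0.855), SAT1 at 0.12 (0.816) and SMOX at -0.46 (0.463). The ODC1 estimate was thus as large as with the HBG1 sgRNA, with a wider error. This comparison rests on 1 DMSO library, which was assumed to vary like the rest.

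Whether the rapamycin change differed between guides was tested as an interaction. No gene of the 10 passed (0 called and 0 at an unadjusted p under 0.05 in edgeR, 0 with DESeq2), where 0.00422% of all genes did. The difference was 0.01 for ODC1 (95% interval -0.24 to 0.25), 0.05 for SRM (-0.25 to 0.36), -0.11 for AMD1 (-0.38 to 0.16) and -0.15 for AZIN1 (-0.44 to 0.13). For PAOX it was -0.08 (-0.75 to 0.59) and for SMOX 0.38 (-0.29 to 1.05). Differences between guides that lie inside these intervals remain compatible with the data at the 95% level.

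The guides were also compared under rapamycin, 3 libraries against 2. None of the 10 genes was called in edgeR (0 of 10) or in DESeq2 (0), where edgeR called 0.0296% of all genes. In edgeR 2 of the 10 had an unadjusted p under 0.05, against 1484 of all 23675. SMOX had the largest estimate, with 7.59, 11.7 and 11.01 CPM with the HBG1 sgRNA against 6.12 and 6.46 CPM with the non-targeting sgRNA. The groups did not overlap, nor did they for OAZ1 and PAOX, all higher with the HBG1 sgRNA. Among tested genes 22.6% did not overlap (11.2% higher). The log2 difference of SMOX was 0.69 (SE 0.202, unadjusted p = 0.00366, adjusted p = 0.773). Under DMSO the single non-targeting library had 8.68 CPM of SMOX, also below the 3 HBG1 sgRNA libraries. OAZ1 was 0.20 higher with the HBG1 sgRNA (SE 0.0892, adjusted p = 0.774), and ODC1 differed by 0.04 (95% interval -0.11 to 0.19).

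The neighbouring steps of the pathway were read from 27 further genes, of which 26 were tested. With the HBG1 sgRNA 8 were called under rapamycin, 7 lower and 1 higher (6.80% of all genes were called). Over the 26 tested genes, called or not, the median log2 fold change was -0.15. None of the 4 genes of ornithine supply (ARG1, ARG2, OAT, AGMAT) was called in edgeR, and 0 had an unadjusted p under 0.05. ARG1 held only 6 to 29 counts per library (SE 0.576) and AGMAT 6 to 14 (SE 0.686). Changes of the size seen in ODC1 could be missed in these genes.

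Of 7 tested genes of methionine supply and salvage, 6 had a lower estimate and 2 were called, both lower. Of all tested genes 6.80% were called (2.75% higher and 4.05% lower). MAT2A, which makes the S-adenosylmethionine that AMD1 uses, stood at 423, 450 and 435 CPM under DMSO and 340, 351 and 317 CPM under rapamycin (log2 fold change -0.38, adjusted p = 0.00348, edgeR). Its groups did not overlap, and it was called under all 16 alternatives. ENOPH1, an enzyme of methionine salvage, fell by 0.43 on the log2 scale (adjusted p = 0.0156), a call lost in 3 of 16 alternatives (adjusted p up to 0.0619). MTAP, which recycles the methylthioadenosine left by SRM and SMS, had 0 counts in all 9 libraries, below a floor of 3 counts (0.0972 to 0.155 CPM). Its neighbours on chromosome 9, CDKN2A and CDKN2B, also had 0 counts. K562 is known for a deletion there.

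Hypusine is a modified lysine that DHPS and DOHH build from spermidine on the translation factor EIF5A. DOHH, the second enzyme, stood at 45.7, 45.3 and 44.4 CPM under DMSO and 31.1, 36.4 and 30.7 CPM under rapamycin with the HBG1 sgRNA (log2 fold change -0.47, adjusted p = 0.00849, edgeR). The groups did not overlap, and the call was lost in 1 of 16 alternatives (adjusted p = 0.0567). It was also the 1 gene of the 26 called with the non-targeting sgRNA (-0.72, adjusted p = 0.0269), where 0.891% of all tested genes were called. DHPS (0.11, adjusted p = 0.54), EIF5A (-0.09, 0.532) and EIF5A2 (-0.17, 0.522) were not called.

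Among 7 genes of transport and other acetyltransferases, 4 were called, 3 lower and 1 higher. Of all tested genes 6.80% were called (2.75% higher and 4.05% lower). SLC3A2, the heavy chain of amino acid exchangers linked to polyamine transport, had a log2 fold change of -0.30 (adjusted p = 0.0314), SLC18B1, a vesicular polyamine transporter, -0.40 (0.0472), and ATP13A3, a polyamine transporting ATPase, -0.35 (0.0239), all by edgeR. ATP13A2, which exports polyamines from lysosomes, rose by 0.32 (0.0414), from 52.4, 44.7 and 48.6 to 61.6, 59.8 and 60.1 CPM. The transporters thus moved in both directions, and these calls were lost in some alternatives. Of 16 alternatives, SLC18B1 was not called in 9, SLC3A2 in 8, ATP13A2 in 5 and ATP13A3 in 4.

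**Figure D4:**
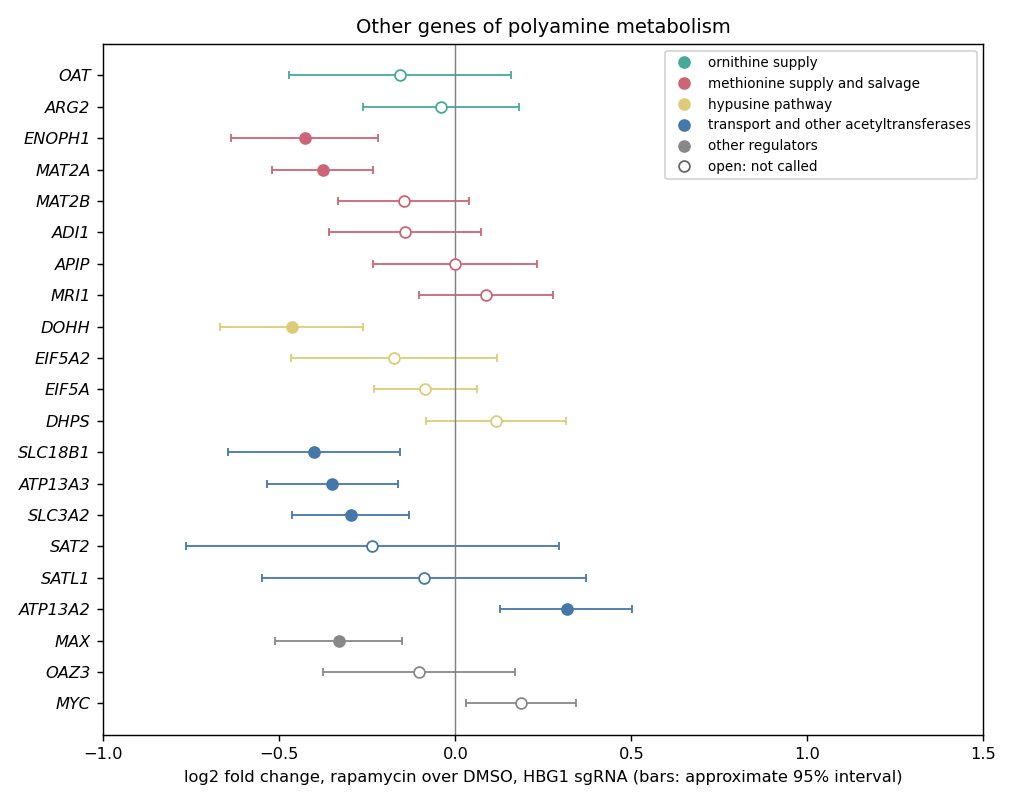
Log2 fold change of rapamycin over DMSO with the HBG1 sgRNA for 21 other genes of polyamine metabolism, with approximate 95% intervals, coloured by list and filled where called; 5 tested genes with an SE of 0.4 or more are not drawn. Filled symbols lie to the left of 0 for 7 genes and to the right for ATP13A2.

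MYC and MAX, which are known to bind CACGTG as a pair, differed in sign. Their binding at the matches printed above was not measured. MYC stood at 247, 219 and 211 CPM under DMSO and 252, 266 and 253 CPM under rapamycin with the HBG1 sgRNA, higher in every rapamycin library of that guide. It was not called (log2 fold change 0.19, adjusted p = 0.15, edgeR) and passed with the replicate block (0.20, adjusted p = 0.0315). MAX stood at 40.9, 41.3 and 39.1 CPM under DMSO and 31.9, 31.8 and 32.7 CPM under rapamycin, and was called lower (-0.33, adjusted p = 0.0271), a call lost in 5 of 16 alternatives. Among the other regulators, OAZ3 (-0.10, adjusted p = 0.71) and AZIN2 (-1.22, SE 0.846, adjusted p = 0.456) were not called.

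The genes most like ODC1 were sought by the root mean square difference of centred log2 CPM over the 9 libraries, among 9798 candidates. HSPA14 (0.0297), PPIF (0.0339) and ABCE1 (0.0399) were closest, against an SD of ODC1 of 0.199, and rapamycin with the HBG1 sgRNA moved them by -0.37, -0.41 and -0.38. For SAT1, with an SD of 0.119, the nearest of 11273 candidates were GALNT12 (0.0516), THEM6 (0.0559) and CASC4 (0.0597), none of them called. The distances of the SAT1 matches are large against its own spread, so its likeness to them is weaker than that of ODC1 to its own. The nearest genes were chosen on the same 9 libraries, so rapamycin changes close to those of ODC1 and SAT1 follow from that choice.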

How the data were processed

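The authors deposited whole-number read counts per Ensembl gene, which were used as deposited. STAR 2.7.3a, featureCounts from Subread 2.0.0 and GRCh38 are named in the submitters' processing notes; strand setting, annotation release and treatment of multi-mapping reads are not given in the sources used here. GENCODE 29 gave symbols for 58039 of 58347 IDs. Poly-T selected RNA was sequenced, per the labels' protocols.

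Counts were filtered (filterByExpr, minimum count 10), scaled by TMM (factors 0.977 to 1.02) and fitted with edgeR 4.0.16 in R 4.3.3 (glmQLFit, glmQLFTest), with 1 mean per group and 1 spread shared by 9 libraries. Scripts were tested on simulated data, with changed genes of mixed level in the HBG1 sgRNA comparison. Of 50 genes each, 14 were called at a true log2 change of -0.35 and 11 at 0.35. At -1 and 1, 45 and 47 of 50 were called. A gene that was not called may thus still have changed by such a small amount, where its 95% interval includes it. The intervals of OAZ1 and OAZ2 with the HBG1 sgRNA do not include -0.35 or 0.35. Intervals are approximate, from the estimate and its SE. DESeq2 1.42.0, other scalings, no filter, each library left out, an additive model and replicate blocks were alternatives.

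Across 11498 genes, deviations of same-numbered HBG1 sgRNA libraries correlated at 0.553, 0.278 and 0.231, above the limit of 0.1, so the numbers were taken to pair them. Replicates 2 and 3 also correlated when crossed (0.258 and 0.194), so replicate 1 stands apart most. The main test has no term for the pairs. All 10 genes are named, and of the 27 further genes those called, with others given for context. The 3 nearest genes to ODC1 and SAT1 needed a mean log2 CPM of at least 3. The genes, lists and rules were chosen with earlier results of these data known. A further K562 marker of the list is not reported here.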

Additional observations from a re-analysis of the deposited data

How the results depend on the processing

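With the HBG1 sgRNA, rapamycin gave 4 calls among the 10 genes, and 1 to 5 when a library was left out. Over all genes the count was 1609, from 664 to 1731 with a library left out, 3441 with the replicate block on the 6 HBG1 sgRNA libraries and 3263 in the additive model. The block added SMS and PAOX to the calls and changed no other call among the 10 genes. With the non-targeting sgRNA, 0 of the 10 were called, 2 with no filter on low counts, 2 with DESeq2, 1 with the replicate block on 9 libraries and 0 to 2 with a library left out; over all genes the count of 211 became 668, 720 and 376 under those alternatives and 0 to 514 with a library left out. SRM was the gene called with the block. Between guides under rapamycin the 10 genes had 0 calls in all 14 alternatives; over all genes 7 became 91 with no filter, 13 with DESeq2, 11 with the replicate block on the 4 rapamycin libraries that share numbers and 3 to 8 with a library left out. The interaction had 0 calls among the 10 genes in all 13 alternatives; over all genes 1 became 0 with library totals, 8 with no filter, 0 with DESeq2, 3 with the replicate block and 0 to 4 with a library left out. The cause of these moves was not tested. Without the non-targeting DMSO library, that guide's rapamycin change and the interaction give no value.

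Signs turned only for values near 0 that were not called. The interaction of SAT1 was 0.0011 with library totals and 0.00027 with no filter, and that of ODC1 was -0.0019 with the replicate block. With a library left out, the rapamycin change with the HBG1 sgRNA ran from -0.091 to 0.017 for OAZ1 and from -0.20 to 0.082 for SMOX. The guide difference under rapamycin ran from -0.0063 to 0.14 for SRM and from -0.13 to 0.093 for SAT1. The interaction ran from -0.0085 to 0.034 for ODC1, -0.019 to 0.12 for SRM, -0.019 to 0.22 for OAZ1, -0.11 to 0.11 for SAT1 and -0.17 to 0.016 for PAOX. Depth limits PAOX (97 to 215 counts) and SMOX (142 to 339) most.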

Other observations

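OAT, the ornithine aminotransferase that links ornithine to glutamate, varied by replicate number more than by treatment. It stood at 226, 153 and 155 CPM under DMSO and 192, 129 and 159 CPM under rapamycin with the HBG1 sgRNA, so that replicate 1 was the highest of both groups. The non-targeting libraries had 153 CPM under DMSO and 157 and 126 CPM under rapamycin. Its rapamycin change was not called (log2 fold change -0.16, adjusted p = 0.604, edgeR).

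DHPS, which starts hypusine synthesis, had rapamycin estimates of opposite sign with the 2 guides, 0.11 with the HBG1 sgRNA and -0.34 with the non-targeting sgRNA. The interaction was 0.45 (SE 0.168, unadjusted p = 0.0162) and did not pass over all genes (adjusted p = 1, edgeR). It was named after its values were seen.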
